A study of Mus musculus with 5 samples.

Results

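Hmgcs1, Idi1, Fdps, Fdft1, Sqle, Lss, Cyp51 and Dhcr7 encode enzymes of cholesterol synthesis. They were chosen by name as a list of 8 genes and matched by symbol to the rows of a count matrix of mouse lumbar dorsal root ganglion (DRG) cells, where all 8 were found among 17267 rows that carry the name of a mouse gene. The matrix held 3352 cells of 14 annotated types, of which 12 were neuron types with 3047 cells in all, 1 was called satellite glia with 249 cells and 1 endothelial with 56 cells. Each gene was described by its count of unique molecular identifiers (UMIs), each of which marks a captured transcript, summed over the cells of a type in each library.

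The cells came from 5 untreated, wild type C57BL/6 mice, 3 males and 2 females, adult and 18 weeks old, and there was no other group, so that every comparison is between cell types within the same animals. DRG were digested with collagenase and trypsin and cleared of debris on a Percoll gradient, and cells were captured with the 10x Genomics Chromium 3′ kit. Cell names carry 5 identifiers, and the cells under each were treated as 1 library from 1 animal. No label ties an identifier to a sample or to a sex, and the libraries are numbered here 1 to 5 in sorted order. Neuron types carry the names of the deposited annotation, in which NF stands for neurofilament, NP for non-peptidergic and PEP for peptidergic neurons.

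A cell makes cholesterol from acetyl-CoA through the mevalonate pathway. Hmgcs1 forms HMG-CoA, from which mevalonate is made. Idi1 interconverts the isoprenoid building blocks, Fdps joins them into farnesyl diphosphate, and Fdft1 couples farnesyl diphosphate into squalene, the step that commits the pathway to sterols. Sqle oxidises squalene, Lss closes the rings to lanosterol, Cyp51 removes a methyl group of lanosterol, and Dhcr7 performs the last reduction of the branch that runs through 7-dehydrocholesterol. The transcription factor SREBP-2, encoded by Srebf2, turns on these genes when sterols are low. Satellite glia wrap the cell bodies of sensory neurons, and Schwann cells, which need much cholesterol for myelin, wrap their axons.

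On mm10 (GENCODE M21), Hmgcs1 lies at chr13:119690379-119708260 and Idi1 at chr13:8885501-8892451, both on the plus strand. Fdps lies at chr3:89093588-89101959 and Fdft1 at chr14:63145150-63179578, both on the minus strand. Sqle lies at chr15:59315077-59331192 and Lss at chr10:76531588-76557138, both on the plus strand. Cyp51 lies at chr5:4081145-4104746 on the minus strand and Dhcr7 at chr7:143823145-143848410 on the plus strand. All 8 are protein-coding. The 3′ end of Fdft1 overlaps that of Ctsb on the opposite strand by 774 bases, and the 3′ end of Cyp51 overlaps that of Akap9 on the opposite strand by 166 bases. The sources do not state whether the counting used strand, so the counts of these genes are given with those of their neighbours further on. Hmgcs1, Idi1 and Lss also overlap non-coding genes on the opposite strand that have no row in the matrix. The gene body of Fdps overlaps Gm43738 on the same strand, which has no row in the matrix, so reads could be split there.

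Upstream sequences are shown because the 8 genes are known as shared targets of SREBP-2. A part of SREBP-2 in the levels reported here was not tested. A RefSeq promoter window on GRCm38.p6 (the same build), reaching from 250 bases before to 50 bases after a start site, was at hand for 5 of the 8 genes, Hmgcs1, Idi1, Lss, Cyp51 and Dhcr7. The sequences of 3 of them are printed 5′ to 3′ on the strand of the gene, up to the first base of the gene in either annotation. Capitals mark letters of 3 motifs searched on both strands: a sterol element (TCACNCCAC), the CCAAT box (CCAAT, or ATTGG on the other strand) and the GC box (GGGCGG, or CCGCCC).
Hmgcs1, chr13:119690101-119690350, plus strand: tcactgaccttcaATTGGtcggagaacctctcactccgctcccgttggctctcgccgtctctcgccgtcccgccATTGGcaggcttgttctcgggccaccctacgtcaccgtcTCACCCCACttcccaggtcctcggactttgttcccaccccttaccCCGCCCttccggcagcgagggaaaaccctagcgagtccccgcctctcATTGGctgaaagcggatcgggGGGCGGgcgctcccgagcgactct
Lss, chr10:76531355-76531587, plus strand: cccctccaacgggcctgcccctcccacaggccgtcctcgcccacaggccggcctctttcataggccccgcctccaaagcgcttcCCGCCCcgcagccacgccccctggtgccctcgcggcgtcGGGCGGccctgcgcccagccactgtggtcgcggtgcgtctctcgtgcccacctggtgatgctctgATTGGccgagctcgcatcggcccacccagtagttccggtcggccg
Cyp51, chr5:4104747-4104947, minus strand: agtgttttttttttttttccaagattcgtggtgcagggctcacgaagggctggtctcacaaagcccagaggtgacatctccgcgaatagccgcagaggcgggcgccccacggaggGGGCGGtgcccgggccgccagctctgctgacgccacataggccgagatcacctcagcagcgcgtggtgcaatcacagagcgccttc
The sterol element occurred in the window of Hmgcs1, starting 137 bases before the RefSeq start site, and overlapped no other motif searched. It was found in 1 of the 5 genes and in 1.24% of 32851 windows of all genes. CCAAT was found in at least 1 window of 5 of the 5 genes and in 37.4% of all windows, and the GC box in 5 of the 5 genes and in 35.7% of all windows. Over the printed stretches, Hmgcs1 held CCAAT at 3 places, Lss at 1 place and Cyp51 at none. A match describes letters only and is not evidence of binding.

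The libraries held 164 to 1370 cells and 13050375 to 88886919 UMIs. The median UMI count per cell was 62779 in neurons, from 30800.5 in PEP3_Trpm8 to 105150 in NP_Mrgprd, against 17729 in glia and 16889 in endothelial cells. No deposited cell had fewer than 13103 UMIs, so shallower cells were not analysed here. Glia numbered 19 to 80 cells and endothelial cells 3 to 16 cells per library. The type called satellite glia carried its own markers, with the summed level of 7 satellite glia markers, Fabp7, Apoe and Kcnj10 among them, between 80350 and 104109 CPM (counts scaled to the same total in every sum) in glia and between 229 and 373 CPM in neurons. It also held markers of other cells. The summed level of 7 Schwann cell markers was 1205 to 2125 CPM in glia and 494 to 627 CPM in neurons, and that of 5 fibroblast markers 193 to 436 CPM in glia and 0.873 to 4.27 CPM in neurons. Of 6 macrophage markers 2 were at 0 in glia, and the sum was 16.6 to 55.5 CPM. That sum was nearly all Cd68, with 109 UMIs over all glia, while C1qa, C1qb and Lyz2 held 2, 3 and 2 UMIs. The summed level of 7 neuron markers in glia was 267 to 875 CPM against 10726 to 11901 CPM in neurons. A list of 8 genes of dissociation and stress, Fos and Hspa1a among them, summed to 3318 to 5538 CPM in glia, 5594 to 9622 CPM in endothelial cells and 1024 to 1324 CPM in neurons. The part of these cells and genes in the results was not tested. Across libraries, 7 barcodes occurred in more than 1 of them.

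Satellite glia were compared with all neurons to ask which cells of the ganglion carry more transcripts of these enzymes. Each neuron sum pooled the cells of all 12 types, so types with more cells and UMIs weighed more. NP_Mrgprd, with 900 of 3047 neurons and the highest median UMI count, was the highest neuron type for Fdps, Fdft1 and Sqle. All levels in this comparison are CPM, the UMIs of a gene as a share of all UMIs of the sum, and all 8 enzymes were higher in glia. In the fitted model, which rescales the sums, the rise was largest for Cyp51, 12.5-fold, and Lss, 7.75-fold. It was smallest for Fdft1 and Dhcr7, 1.57- and 1.56-fold. The mean ratio of CPM over libraries was lower, at 10.7 for Cyp51, 6.66 for Lss, 1.32 for Fdft1 and 1.37 for Dhcr7. Over all 9484 genes tested 32.6% were higher in glia. A call here is a Benjamini-Hochberg adjusted p under 0.01 in the quasi-likelihood test of edgeR over library sums.

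Hmgcs1 measured 676, 633, 662, 788 and 719 CPM in the glia of libraries 1 to 5, and 253, 271, 291, 212 and 237 CPM in the neurons. The lowest glial value was thus above the highest neuronal value, and the log2 fold change was 1.71 ± 0.21 (SE, adjusted p = 5.78e-08 in edgeR). Idi1 measured 378, 268, 379, 474 and 367 CPM in glia and 114, 89.2, 87.4, 90.3 and 98.8 CPM in neurons. Its groups did not overlap either, with a log2 fold change of 2.21 ± 0.17 (SE, adjusted p = 9.17e-12 in edgeR). Fdps measured 1417, 1089.6, 1540.5, 1553 and 1172 CPM in glia and 743, 682, 725, 749.7 and 718 CPM in neurons. Here the glia of libraries 2 and 5 were the lowest but stayed above all neuronal values, and the log2 fold change was 1.16 ± 0.21 (SE, adjusted p = 1.79e-05 in edgeR).

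Fdft1, which makes squalene, measured 461, 393, 435, 508 and 384 CPM in glia and 299, 343, 315, 354 and 348 CPM in neurons. Both ranges were close to each other without overlap, and the log2 fold change was 0.65 ± 0.17 (SE, adjusted p = 1.57e-03 in edgeR). Its call was lost without library 1 (log2 fold change 0.56, adjusted p = 0.011), with library totals in place of TMM scaling (0.39, adjusted p = 0.0245) and without the filter on low counts (0.47, adjusted p = 0.0236). Ctsb, whose 3′ end overlaps that of Fdft1, went the other way, at 573 ± 76.0 CPM in glia and 1266 ± 94.3 CPM in neurons (SD, n = 5). Sqle measured 492, 345, 491, 475 and 416 CPM in glia and 188, 174, 209, 204 and 211 CPM in neurons. Every glial value of Sqle was above every neuronal value, with a log2 fold change of 1.42 ± 0.16 (SE, adjusted p = 1.09e-08 in edgeR).

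Lss measured 50.4, 49.9, 42.3, 48.3 and 46.2 CPM in glia and 6.99, 8.87, 7.79, 6.60 and 5.98 CPM in neurons. The glial level was nearly the same in the 5 libraries, and the log2 fold change was 2.95 ± 0.17 (SE, adjusted p = 5.15e-14 in edgeR). Cyp51 measured 582, 432, 559, 643 and 482 CPM in glia and 47.2, 49.5, 68.3, 46.4 and 47.0 CPM in neurons. Its groups were the farthest apart of the 8, with a log2 fold change of 3.64 ± 0.15 (SE, adjusted p = 6.46e-17 in edgeR). Akap9, which overlaps the 3′ end of Cyp51, was at 54.9 ± 5.12 CPM in glia and 120 ± 12.5 CPM in neurons (SD, n = 5), again the other way. Dhcr7 measured 58.0, 49.0, 52.7, 69.7 and 63.5 CPM in glia and 44.3, 48.3, 54.7, 34.8 and 40.8 CPM in neurons. These groups overlapped, glia being above neurons of the same library in 4 of 5 libraries, and the log2 fold change was 0.64 ± 0.15 (SE, adjusted p = 4.98e-04 in edgeR). The call of Dhcr7 was lost in DESeq2 (0.36, adjusted p = 0.0437), with library totals (0.38, adjusted p = 0.0292), without the filter on low counts (0.47, adjusted p = 0.0105) and without library 4 (0.45, adjusted p = 0.0193).

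The median log2 fold change over the 8 enzymes was 1.57, against -0.17 over all genes tested. With library totals both fell by about the same amount, to 1.31 and -0.43, so that the distance between them was 1.74 with either scaling. Only the calls of Fdft1 and Dhcr7 depended on that scaling among the 8.

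**Figure D1:**
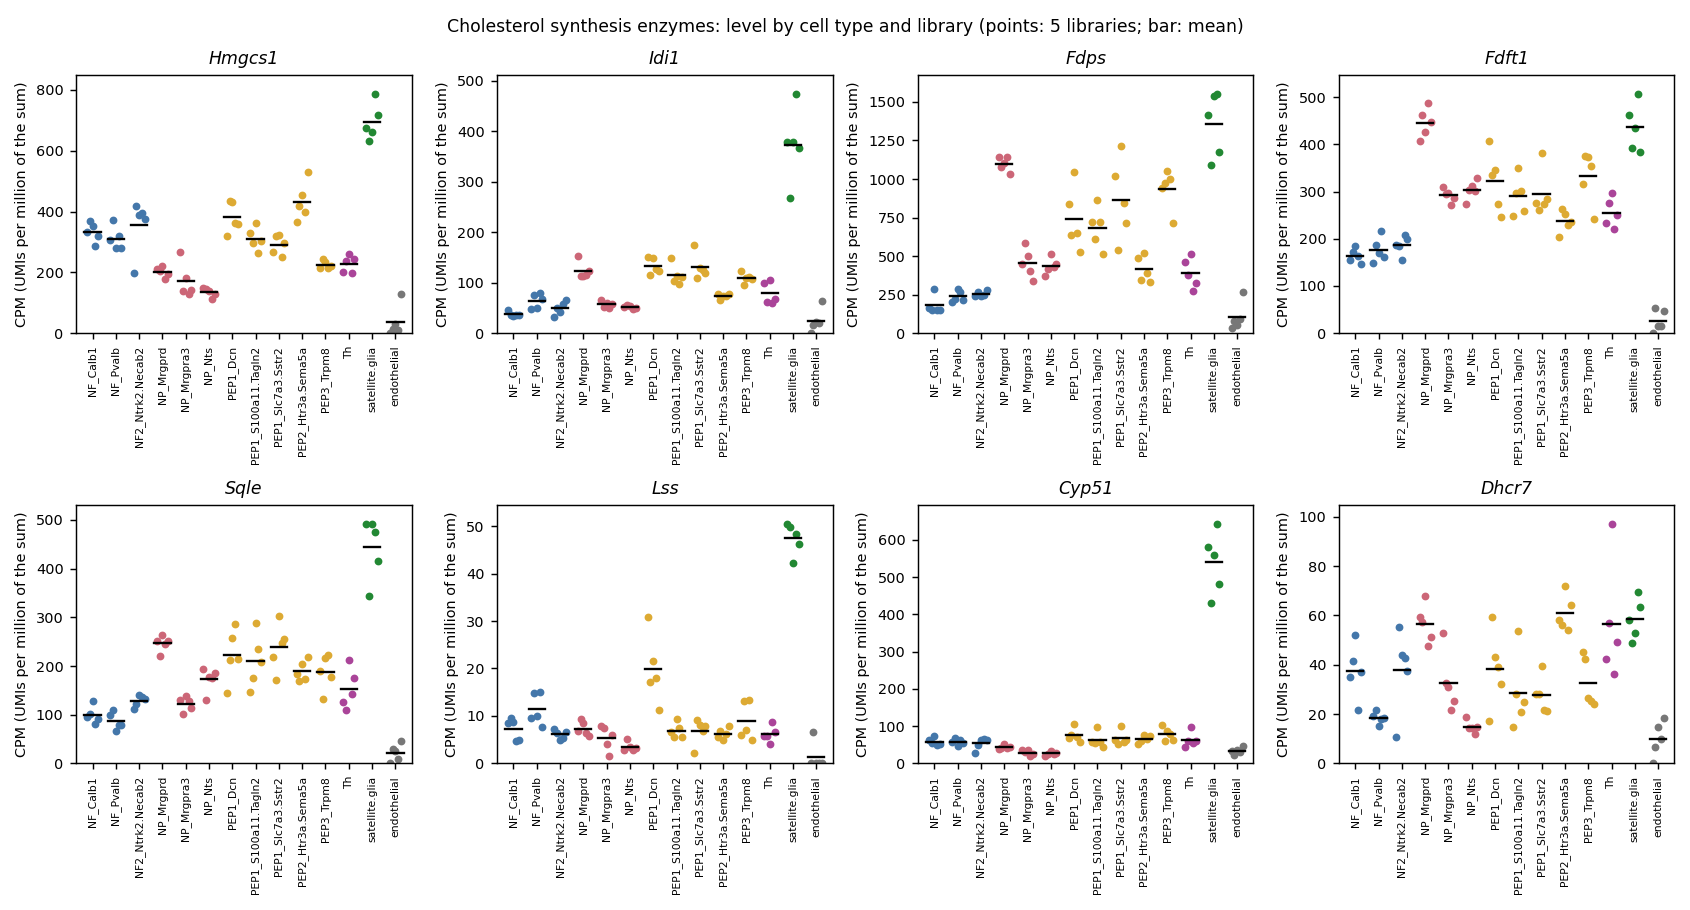
CPM of each enzyme (vertical axes, each from 0) in the 14 cell types (horizontal axes), with a point for each of 5 libraries and a bar at their mean. Glia stand far above all neuron types for Cyp51 (mean 539.6 CPM) and Lss (47.4 CPM), whereas NP_Mrgprd reaches the glial level for Fdft1 and PEP2_Htr3a.Sema5a for Dhcr7.

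Against single neuron types, the glial level exceeded that of all 12 types in every library for Hmgcs1, Idi1, Fdps, Sqle, Lss and Cyp51. The share of all genes that do so is not given here, so this separation is not read as particular to the enzymes. The closest neuron type for Fdps was NP_Mrgprd, at 1100.1 ± 46.0 CPM against 1355 ± 213 CPM in glia (SD, n = 5). For Cyp51 the closest type was PEP3_Trpm8, and glia were 6.90 times as high. For Fdft1 glia (436 ± 50.9 CPM) and NP_Mrgprd neurons (446 ± 31.1 CPM) differed by less than the spread between libraries. Dhcr7 was highest in PEP2_Htr3a.Sema5a, at 61.0 ± 7.27 CPM, beside 58.6 ± 8.29 CPM in glia, and only 6 of 12 neuron types were below glia in every library.

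The direction depended on the scale. A neuron gave 4.13 ± 0.110 times as many UMIs as a glial cell (SD, n = 5 libraries), and per cell glia held fewer UMIs of most of these enzymes. The ratio of UMIs per cell, glia over neurons, was 0.678 ± 0.139 for Hmgcs1, 0.453 ± 0.0671 for Fdps, 0.320 ± 0.0463 for Fdft1, 0.544 ± 0.0659 for Sqle and 0.331 ± 0.101 for Dhcr7 (SD, n = 5), below 1 in every library. For Idi1 it was 0.952 ± 0.227 and lay on both sides of 1. Lss, at 1.61 ± 0.228, and Cyp51, at 2.58 ± 0.548, were higher in glia in 5 of 5 libraries on both scales. A single glial cell held 9.96 UMIs of Cyp51 in the mean against 3.95 in a neuron.

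**Figure D2:**
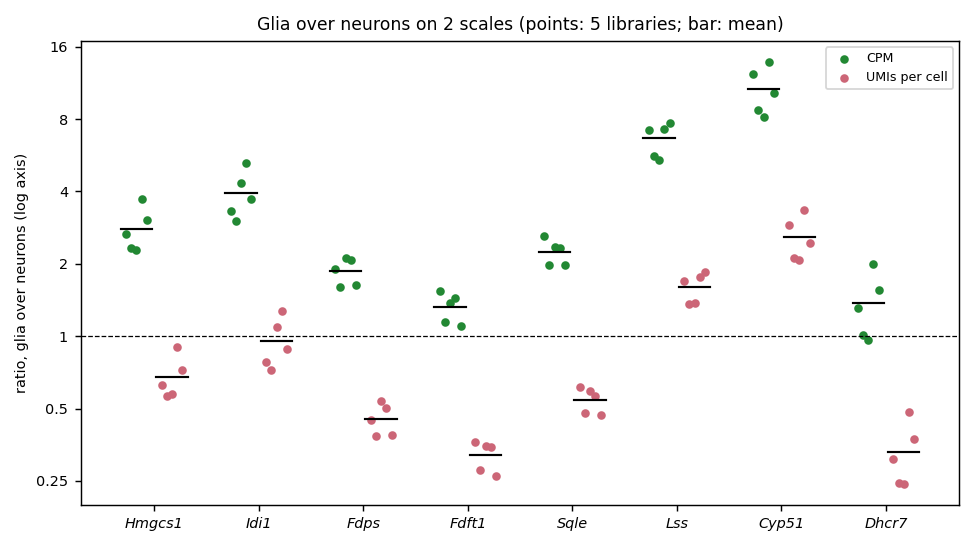
Ratio of glia to neurons (vertical axis, log scale, dashed line at 1) for each enzyme (horizontal axis), as CPM in green and as UMIs per cell in red, with a point for each of 5 libraries and a bar at the mean. Cyp51 and Lss lie above 1 on both scales, while the means of Hmgcs1, Idi1, Fdps, Fdft1, Sqle and Dhcr7 change sides.

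Shares of cells with a UMI were read with depth in view, since glia held fewer UMIs per cell. As deposited, Hmgcs1 was seen in 99.6% of glia and 99.7% of neurons, Sqle in 98.0% and 98.9%, and Dhcr7 in 63.1% and 76.7%. After each cell was thinned to 10000 UMIs, which left out no cell, the expected shares were 97.4% and 86.3% for Hmgcs1, 95.5% and 79.6% for Sqle, and 43.2% and 29.7% for Dhcr7. The widest gap was that of Cyp51, at 98.1% of glia against 38.9% of neurons when thinned and 99.6% against 88.7% as deposited. Endothelial cells, at a median depth close to that of glia (16889 against 17729 UMIs), showed Cyp51 in 19.8% of cells when thinned and in 26.8% as deposited. Lss was the sparsest, with a thinned share of 36.4% of glia and 6.95% of neurons.

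Endothelial cells, the other non-neuronal type, served to ask whether the glial level is shared by cells that are not neurons. The enzymes were low there. Against neurons 6 of 8 were lower, beside 36.7% of all genes tested, and 8 of 8 were higher in glia than in endothelial cells, beside 19.5%. Fdft1 measured 0, 52.9, 14.8, 14.9 and 46.2 CPM in the endothelial cells of libraries 1 to 5, with a log2 fold change against neurons of -3.21 ± 0.29 (SE, adjusted p = 3.10e-10 in edgeR). Hmgcs1 measured 0, 13.2, 29.5, 9.93 and 129 CPM, with a log2 fold change of -2.76 ± 0.34 (SE, adjusted p = 1.18e-07 in edgeR). The 0 of library 1 stands for 3 cells with 58279 UMIs, in which a count of 0 allows up to 51.5 CPM by counting error alone. For Hmgcs1 the 7 endothelial cells of library 5 stood above the others.

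Sqle fell by 2.73, Fdps by 2.63, Dhcr7 by 1.77 and Idi1 by 1.73 on the log2 scale in endothelial cells against neurons, all called. Lss had 2 UMIs in the endothelial cells of library 2 and none in the other 4 libraries, and Cyp51 measured 34.3, 23.2, 36.9, 29.8 and 46.2 CPM, with log2 fold changes that were not called (Lss -1.48, adjusted p = 0.12; Cyp51 -0.40, adjusted p = 0.183, edgeR). With sums of at least 10 cells, which leave out the endothelial cells of libraries 1 and 5, 6 of 8 were again lower than in neurons and 8 of 8 lower than in glia. The endothelial level was 7.76% of the neuronal level for Fdft1, 14.4% for Hmgcs1 and 65.9% for Cyp51. Beside these, 7 neuron markers stood at 0.926% to 7.18% of their neuronal level in endothelial cells, and at 2.38% to 6.91% in glia. Glial transcripts were also present in the endothelial sums. The summed satellite glia markers were at 1527 to 15254 CPM there, and the 6 of them tested were all higher than in neurons. Apoe was the largest of them, at 3520 CPM over all endothelial cells. Against glia 5 of the 6 were lower in endothelial cells. Glul was higher, at 1076 CPM against 538 CPM in glia. The part of glial RNA in the endothelial values was not tested.

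**Figure D3:**
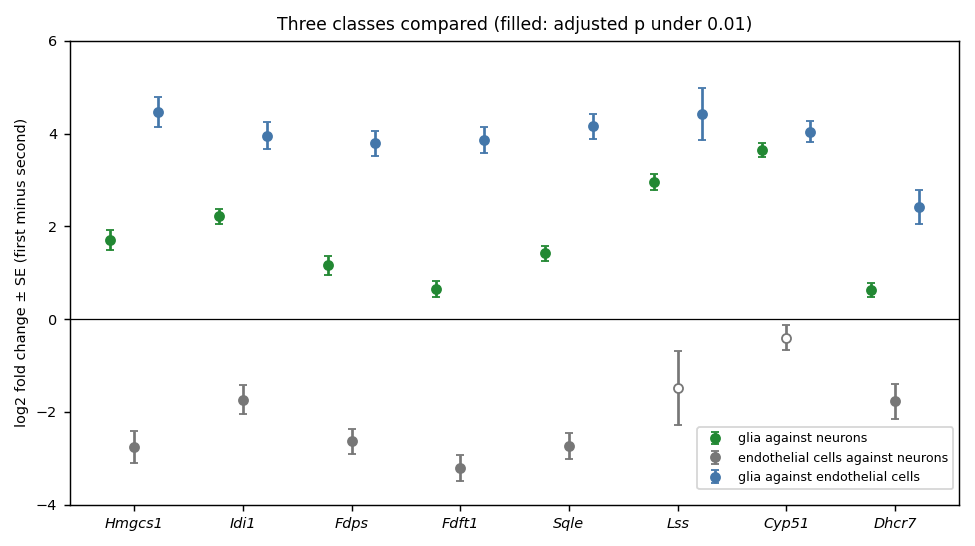
Log2 fold change with its standard error (vertical axis) of each enzyme (horizontal axis) between glia, endothelial cells and neurons, where filled points passed an adjusted p under 0.01. All 8 points of glia against neurons lie above 0, from 0.64 for Dhcr7 to 3.64 for Cyp51, and those of Lss and Cyp51 are open in endothelial cells against neurons.

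Other genes of the pathway in glia were read from fixed lists. Over all 9484 genes tested 6785 were called in glia against neurons, 3095 of them higher in glia. Of 6 genes of the mevalonate and isoprenoid steps, 3 were higher in glia and 2 lower. Mvd, which makes the first isoprenoid unit, rose by a log2 fold change of 0.88 ± 0.16 and the kinase Pmvk by 0.80 ± 0.18 (SE). Acat2, which condenses acetyl-CoA, and Mvk, mevalonate kinase, were lower by log2 fold changes of -0.44 and -0.52 and are named after their values were seen. The median over the 6 genes was 0.22.

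Of 8 genes of the steps after lanosterol, 7 were higher in glia and 1 lower, with a median log2 fold change of 1.78. Over all genes tested 32.6% were higher in glia, which is the background for this list and the next. Hsd17b7, a sterol ketone reductase, rose by 2.82 ± 0.17, Lbr, which also sits in the nuclear envelope, by 2.73 ± 0.24 and the desaturase Sc5d by 2.44 ± 0.18 (SE). Of 11 genes of control by sterols 9 passed the filter on low counts, and 6 were higher and 1 lower. Srebf1 and Srebf2, the SREBP transcription factors, rose by 2.38 ± 0.25 and 2.08 ± 0.25 (SE), and Insig2, a sterol-dependent retention factor of the endoplasmic reticulum named after its value was seen, fell by 1.55. In endothelial cells 5 of the 6 mevalonate genes and 5 of the 8 later genes were lower than in neurons. Over all genes tested 36.7% were lower there. Lbr was higher in endothelial cells, at 3.81 ± 0.35 (SE). All calls in these lists are from edgeR at an adjusted p under 0.01.

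The neuron types were compared to ask whether the enzymes share a profile among sensory neurons. They did not follow a single order. All 8 differed among the 12 types in the edgeR test over 60 sums, but so did 94.3% of the 11561 genes tested. The types were clustered from these same counts, so that all tests between types here describe the annotated types and are not independent of the annotation. Hmgcs1 was highest in PEP2_Htr3a.Sema5a, at 364, 417, 455, 398 and 530.5 CPM in libraries 1 to 5, and lowest in NP_Nts, at 148, 145, 139, 113 and 129 CPM. These types did not overlap, and the means differed 3.22-fold. Fdps was highest in NP_Mrgprd, at 1141, 1076, 1106, 1143 and 1034 CPM, and lowest in NF_Calb1, at 163, 148, 288, 152 and 149 CPM, where library 3 stood apart. The means differed 6.11-fold, the widest range of the 8 among neurons.

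Fdft1 and Sqle shared both or nearly both ends of that order with Fdps. Fdft1 was highest in NP_Mrgprd (407, 463, 427, 487 and 447 CPM) and lowest in NF_Calb1 (154, 171, 184, 164 and 148 CPM), and Sqle ran from 247 ± 15.8 CPM in NP_Mrgprd to 86.8 ± 17.5 CPM in NF_Pvalb (SD, n = 5). Idi1 was highest in PEP1_Dcn, at 133 ± 16.3 CPM, and lowest in NF_Calb1, at 37.7 ± 5.00 CPM. Lss was highest in PEP1_Dcn at 30.8, 17.2, 21.5, 18.1 and 11.3 CPM and lowest in NP_Nts at 2.92, 5.22, 3.53, 2.90 and 3.22 CPM. A library held as few as 4 cells of PEP1_Dcn. Cyp51 ranged from 78.2 ± 17.4 CPM in PEP3_Trpm8 to 26.8 ± 5.17 CPM in NP_Nts. Dhcr7 ranged from 61.0 ± 7.27 CPM in PEP2_Htr3a.Sema5a to NP_Nts, where the libraries lay between 12 and 19 CPM (SD, n = 5).

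Most neighbours in these orders did not differ beyond their spread. Of 11 neighbouring pairs of neuron types per gene, the mean difference between libraries exceeded its own SD in 5 pairs for Fdps, in 3 for Fdft1, in 2 each for Hmgcs1, Idi1, Lss and Dhcr7, and in 1 each for Sqle and Cyp51. For Fdps the first step, from NP_Mrgprd to PEP3_Trpm8 (1100.1 against 936 CPM), was beyond the spread, as was the step from PEP1_S100a11.Tagln2 to NP_Mrgpra3 (685 against 455 CPM). For Hmgcs1 the first steps, from PEP2_Htr3a.Sema5a through PEP1_Dcn, the NF types and PEP1_S100a11.Tagln2 to PEP1_Slc7a3.Sstr2, all lay within the spread, and the step from PEP1_Slc7a3.Sstr2 to Th (291 against 228 CPM) was beyond it. For Cyp51 the step beyond the spread was that from NP_Mrgprd to NP_Mrgpra3 (43.2 against 29.3 CPM).

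Between the NF types and the NP types the enzymes went in both directions. In NF neurons Hmgcs1 (log2 fold change 0.92 ± 0.08), Cyp51 (0.76 ± 0.11) and Lss (0.56 ± 0.17) were higher, 3 of 8 beside 36.0% of all genes. Fdps (-1.53 ± 0.11), Fdft1 (-1.05 ± 0.07), Sqle (-0.85 ± 0.09) and Idi1 (-0.58 ± 0.09) were lower, 4 of 8 beside 33.8% (all ± SE, edgeR). Dhcr7 had a log2 fold change of 0.00 ± 0.10. Both shares are near the background, and the call of Lss was lost without library 4 (0.37, adjusted p = 0.0718) and with cells of up to 10% mitochondrial UMIs (0.53, adjusted p = 0.0118). In the same contrast 4 of the 6 mevalonate genes were lower, led by Mvd at -1.15 ± 0.13 and Mvk at -0.87 ± 0.08, and of the 8 later genes 3 were higher and 2 lower, with Hsd17b7 at 0.92 ± 0.11 and Ebp, the sterol isomerase, at -1.54 ± 0.11 (SE).

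Against the PEP types, NF neurons had lower levels of Fdps (-1.67 ± 0.10), Idi1 (-1.12 ± 0.08), Sqle (-1.05 ± 0.09) and Fdft1 (-0.75 ± 0.06), 4 of 8 beside 32.6% of all genes (log2 fold change ± SE, edgeR). Hmgcs1, at 0.04 ± 0.07, was not called, nor were Lss, Cyp51 and Dhcr7, at -0.16, -0.26 and -0.22. With the animal as a replicate block Cyp51 was called as well (-0.23, adjusted p = 0.00424). Of the mevalonate list 5 of 6 were lower in NF than in PEP neurons, with a median of -0.71, and of the later steps 5 of 8, with a median of -0.58, led by Ebp at -1.44 ± 0.10 and the methyl oxidase Msmo1 at -1.06 ± 0.10 (SE). Of 8 dissociation and stress genes 7 were also lower in NF than in PEP neurons and 5 lower in NF than in NP neurons, and their part in the result was not tested.

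Between the 2 nociceptor classes, PEP types were above NP types for Cyp51 (1.02 ± 0.10), Hmgcs1 (0.88 ± 0.07), Lss (0.72 ± 0.14) and Idi1 (0.54 ± 0.07), 4 of 8 beside 31.1% of all genes, and below them for Fdft1 (-0.30 ± 0.06), 1 of 8 beside 24.4% (log2 fold change ± SE, edgeR). Fdps, at 0.14 ± 0.09, and Sqle, at 0.20 ± 0.08, were not called. Sqle was called with the animal as a replicate block (0.20, adjusted p = 0.00482) and with library totals (0.28, adjusted p = 0.00234). Of the 8 later genes 7 were higher in PEP than in NP neurons, Lbr by 1.33 ± 0.19 and Hsd17b7 by 0.98 ± 0.10 (SE) among them. Of 8 dissociation and stress genes 6 were higher and 1 lower in PEP than in NP neurons. These 3 contrasts share their sums and are set side by side, not counted as separate support.

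Single types were then set against the mean of the others. NP_Mrgprd was the largest type, with 900 cells. Against the mean of the other 11 neuron types, NP_Mrgprd was higher for 5 of 8 enzymes, beside 29.0% of all genes. These were Fdps at a log2 fold change of 1.42, Fdft1 at 0.94, Dhcr7 at 0.92, Idi1 at 0.82 and Sqle at 0.77. It was lower for 1 of 8, beside 28.8%, which was Hmgcs1, the enzyme at the entry of the pathway, at -0.33. That last call was lost without the filter on low counts (-0.21, adjusted p = 0.0572) and without any one of libraries 2 to 5 (-0.26 to -0.31 with adjusted p from 0.0147 to 0.0421). In NP_Nts 5 of 8 were lower, beside 21.7%, led by Dhcr7 (-1.35), Lss (-1.15), Hmgcs1 (-1.09) and Cyp51 (-1.06). In NP_Mrgpra3 3 of 8 were lower, beside 18.2%, Cyp51 (-0.95), Hmgcs1 (-0.65) and Idi1 (-0.42). The call of Idi1 was lost in edgeR without library 4 (-0.38, adjusted p = 0.0237) and without library 5 (-0.43, adjusted p = 0.0123). A library held as few as 4 cells of NP_Mrgpra3.

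Calls of higher levels were frequent among the PEP types other than PEP2_Htr3a.Sema5a. In PEP1_Dcn 7 of 8 enzymes were higher, beside 21.7% of all genes, with Lss at a log2 fold change of 1.38, Idi1 at 0.79, Fdps at 0.66, Hmgcs1 at 0.57, Cyp51 at 0.53 and Sqle at 0.51. Fdft1, at 0.27 with an adjusted p of 0.00962 in edgeR, was the weakest of them and lost its call without library 1 (0.15), library 2 (0.26) and library 3 (0.25), with sums of at least 10 cells (0.15, adjusted p = 0.201), with the mitochondrial limit of 10% (0.24, adjusted p = 0.0293) and without the filter on low counts (0.24, adjusted p = 0.0346). Sqle there lost it without library 4 (0.42) and Cyp51 without library 2 (0.50). PEP3_Trpm8 was higher for 4 of 8, beside 22.8%, with Fdps at 1.00, Cyp51 at 0.50, Idi1 at 0.47 and Fdft1 at 0.32. Of these Cyp51 lost its call without library 1 (0.40) and library 4 (0.47) and with sums of at least 10 cells (0.41, adjusted p = 0.0219). Fdft1 lost it without library 2 (0.28), library 3 (0.29) and library 4 (0.31) and without the filter on low counts (0.27, adjusted p = 0.0128).

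PEP1_Slc7a3.Sstr2 was higher for 3 of 8, beside 23.1%, which were Fdps at 0.91, Idi1 at 0.78 and Sqle at 0.59. PEP1_S100a11.Tagln2 was also higher for 3 of 8, beside 18.6%, with Fdps at 0.57, Idi1 at 0.59 and Sqle at 0.43, where Sqle lost its call without library 3 (0.33), library 4 (0.39) and library 5 (0.41). PEP2_Htr3a.Sema5a was higher for Dhcr7 (0.89) and Hmgcs1 (0.73), 2 of 8 beside 29.3%, which is near the background. Fdps, at -0.28, was not called there. Th neurons were higher for Dhcr7 alone, at 0.77, 1 of 8 beside 22.1%, with 42.4, 56.9, 97.1, 36.4 and 49.3 CPM in the 5 libraries, library 3 being the highest.

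Among the NF types Fdps and Fdft1 were lower in each. NF_Calb1 was lower for 4 of 8, beside 22.7%, with Fdps at -1.62, Idi1 at -1.25, Sqle at -0.85 and Fdft1 at -0.83, and higher for Hmgcs1 at 0.28, 1 of 8 beside 33.8%, a call lost without libraries 2 (0.21), 3 (0.31), 4 (0.25) or 5 (0.28), without the filter on low counts (0.25, adjusted p = 0.0195) and with the mitochondrial limit of 10% (0.26, adjusted p = 0.0111). NF_Pvalb was lower for 4 of 8, beside 23.2%, with Fdps at -1.14, Sqle at -1.06, Dhcr7 at -0.99 and Fdft1 at -0.67. It was higher for Lss at 0.64, 1 of 8 beside 28.2%, a call lost without any one of libraries 1 to 4 (0.46 to 0.68) with sums of at least 10 cells (0.65, adjusted p = 0.0121) and without the filter on low counts (0.60, adjusted p = 0.0141). NF2_Ntrk2.Necab2 was lower for 3 of 8, beside 16.7%, with Fdps at -0.98, Idi1 at -0.60 and Fdft1 at -0.53, and higher for Hmgcs1 at 0.49, 1 of 8 beside 20.8%. With sums of at least 10 cells Idi1 (-0.34, adjusted p = 0.0899) and Fdft1 (-0.36, adjusted p = 0.0265) were no longer called in NF2_Ntrk2.Necab2, of which a library held as few as 3 cells.

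With the animal as a replicate block, 10 further calls were made in single types and the block removed none of those above. Over all genes the calls summed over the 12 types rose as well, from 58770 to 65314, while those of the enzymes rose from 48 to 58. Sqle was then lower in NF2_Ntrk2.Necab2 (-0.35) and NP_Mrgpra3 (-0.36), Idi1 in NF_Pvalb (-0.30), Hmgcs1 in PEP3_Trpm8 (-0.30) and Th (-0.29), and Fdps in Th (-0.40). Fdft1 was higher in NP_Mrgpra3 (0.25) and NP_Nts (0.23), and Cyp51 in PEP1_Slc7a3.Sstr2 (0.30) and PEP2_Htr3a.Sema5a (0.29), all log2 fold changes in edgeR.

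**Figure D4:**
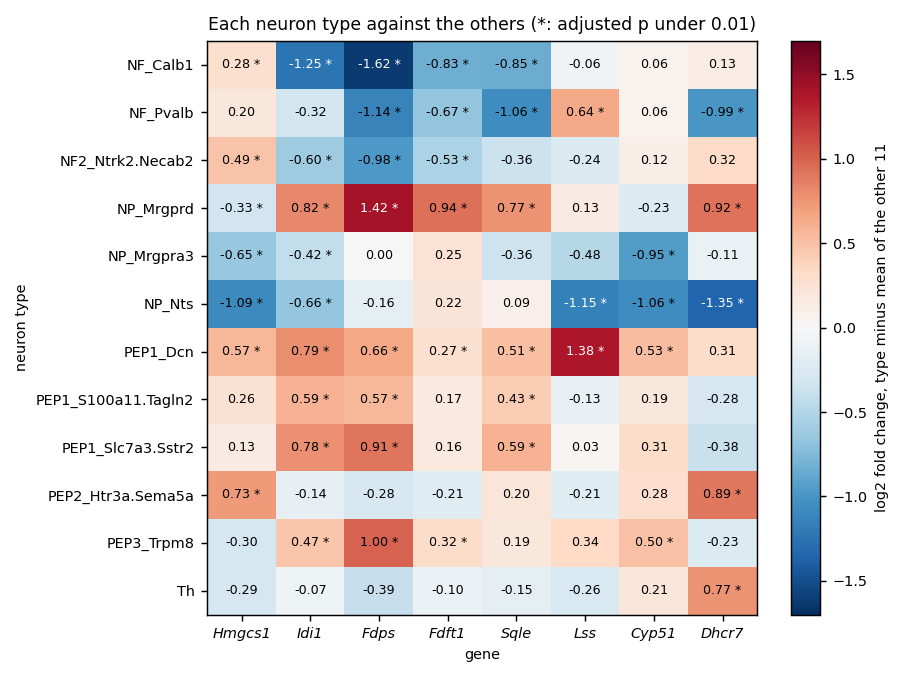
Log2 fold change of each enzyme (columns) in each neuron type (rows) against the mean of the other 11, with the colour scale from blue (lower) to red (higher) and an asterisk at an adjusted p under 0.01. Fdps runs from -1.62 in NF_Calb1 to 1.42 in NP_Mrgprd, and Hmgcs1 goes the other way in both rows.

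The ratio of Fdps to Hmgcs1 UMIs within a sum does not depend on the scaling between sums. It is read across types only, since both genes may be captured unequally. It was 5.50 ± 0.542 in NP_Mrgprd, 4.16 ± 0.574 in PEP3_Trpm8 and 3.27 ± 0.549 in NP_Nts. It was 0.540 ± 0.161 in NF_Calb1, 0.775 ± 0.264 in NF2_Ntrk2.Necab2, 0.778 ± 0.166 in NF_Pvalb and 0.981 ± 0.271 in PEP2_Htr3a.Sema5a (SD, n = 5). The highest NF value in any library was 1.24, and the lowest value of NP_Mrgprd was 5.03. Glia, at 1.95 ± 0.282, lay between these ends, next to PEP1_Dcn at 1.96 ± 0.543.

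**Figure D5:**
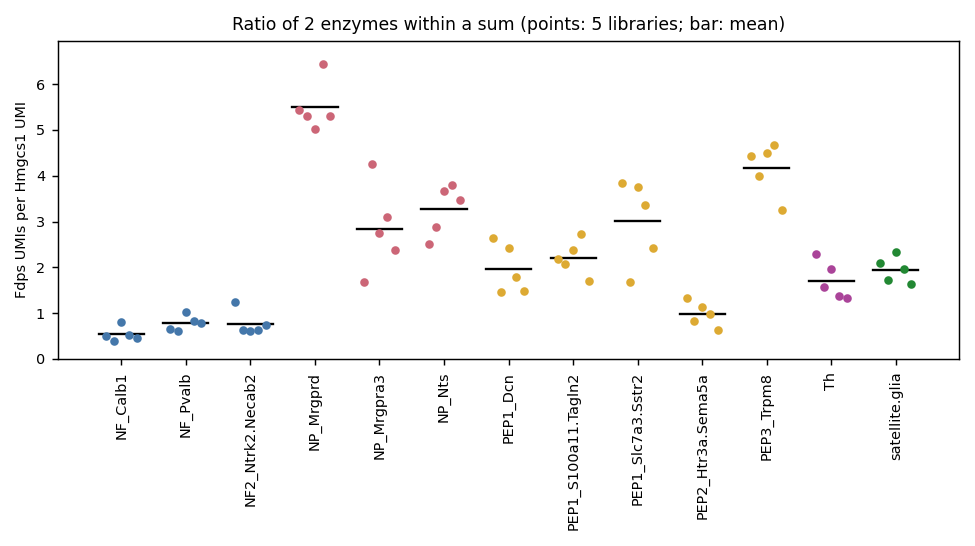
Fdps UMIs per Hmgcs1 UMI (vertical axis, from 0) in 12 neuron types and glia (horizontal axis), with a point for each of 5 libraries and a bar at the mean. The 3 NF types stay between 0.401 and 1.24 and NP_Mrgprd between 5.03 and 6.43.

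Over the 12 neuron types, the mean log2(CPM + 1) profiles of Fdps, Fdft1, Sqle and Idi1 resembled each other, with Pearson's r of 0.93 for Fdps and Fdft1, 0.89 for Fdps and Idi1 and 0.89 for Fdps and Sqle. Hmgcs1 was most like Cyp51 (r = 0.78) and Lss (r = 0.58) and unlike Fdft1 (r = -0.48) and Fdps (r = -0.24). Over all 28 pairs of the 8 enzymes r ran from -0.48 to 0.93 with a median of 0.25, and Spearman's rho from -0.53 to 0.93. The 12 profiles rest on the same 5 libraries. Within glia all 28 pairs had r above 0 over 249 cells centred within libraries, with a median of 0.28. They ran from 0.00484 for Lss and Dhcr7 to 0.60 for Hmgcs1 and Fdps. Over the 900 cells of NP_Mrgprd 26 of 28 pairs had r above 0, with a median of 0.19. The pair of Hmgcs1 and Fdps was among the exceptions there, at r = -0.07. Cells share the depth of their library, and these values are descriptions without a test.

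Over the 60 sums of neuron types, the genes most like the mean profile of the 8 enzymes were looked for among 7894 genes with a mean of at least 10 CPM. The 10 most alike were Msmo1 (r = 0.89), Acat2 (0.87), Mvd (0.84), Sc5d (0.80), Mvk (0.79), Gria1 (0.77), 2210016F16Rik (0.76), Nsdhl (0.75), Fbxw17 (0.74) and Syt16 (0.72), of which 6 stand on the lists of pathway genes used above. By single enzymes the 10 most alike genes held 4 pathway genes for Idi1, 3 for Fdps, 2 for Sqle and 1 for Hmgcs1, and none for Fdft1, Lss, Cyp51 or Dhcr7. Of the 8 members themselves Idi1 was nearest to that mean (r = 0.84) and Hmgcs1 farthest (r = 0.44). The gene most like Hmgcs1 alone was Cpt1a (r = 0.85). For Fdps it was Msmo1 (r = 0.88), followed by Ebp (r = 0.87).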

How the data were processed

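Gene expression was measured in single cells of lumbar DRG from 5 mice. The authors aligned reads to mm10, counted UMIs over UCSC gene models in Cell Ranger 2.0.0, kept cells with 500 to 15000 genes and a mitochondrial ratio up to 0.1, clustered them with Seurat 3.0.1 (15 principal components, resolution 0.6) and deposited raw UMI counts, not normalized, and a type per cell as text. Of 3352 cells 188 were above 10% by the 37 mitochondrial rows and were kept, except in 1 alternative. The 4 rows that do not carry a mouse gene name, with 143 UMIs, were left out. No doublet caller was run here.

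Counts were summed per type and library and tested with edgeR 4.0.16 in R 4.3.3 (filterByExpr, TMM, quasi-likelihood, adjustment over all genes tested), first on 15 sums of glia, endothelial cells and neurons, then on 60 sums of 12 neuron types. CPM and descriptions were computed in Python 3.11.15. Libraries are separate animals, so library numbers pair the sums. Deviations from group means correlated between sums of a library at r from 0.011 to 0.187 in the 15 sums and from -0.026 to 0.422 in the 60 sums. Alternatives were DESeq2 1.42.0, no filter, library totals, a replicate block, a 2-fold minimum, sums of at least 10 cells, a mitochondrial limit, neuron types weighted equally, UMIs per cell, thinning and leaving out each library. Intervals and limits of a count of 0, set at 3 counts, cover counting error only.

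The 8 genes and the gene lists were chosen with earlier results of these data known. Named genes beyond the 8 are at most 3 per list and comparison with the largest called change, and the 10 genes most like the mean of the 8. Proteins and promoters of Sqle, Fdps and Fdft1 were not analysed here, and some genes of the lists are not reported here by name.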

Additional observations from a re-analysis of the deposited data

Results flagged for a closer look

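Over 120 groups of 5 libraries (8 genes in 14 types and in pooled neurons), 12 had a library whose gap to the nearest other was large for the range of the group. Chance flags about 1 in 20 groups. Library 3 was the high value in 5 of the 12. These were Cyp51 in pooled neurons at 68.3 CPM (the others 46.4 to 49.5), in PEP1_S100a11.Tagln2 at 96.8 CPM and in PEP1_Slc7a3.Sstr2 at 101 CPM, Fdft1 in PEP1_Slc7a3.Sstr2 at 381 CPM, and Fdps in NF_Calb1 at 288 CPM (the others 148 to 163). Without library 3, 8 of 8 enzymes were still higher in glia than in neurons.

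Library 1, which held the fewest cells, gave Hmgcs1 in NF2_Ntrk2.Necab2 at 197 CPM (the others 375 to 418), Idi1 in NF_Calb1 at 46.6 CPM and Idi1 in NP_Mrgprd at 152 CPM. Library 2 gave Lss in NP_Nts at 5.22 CPM and Lss in endothelial cells at 6.62 CPM, which is 2 UMIs, the other libraries being at 0. Library 5, with 7 endothelial cells, gave Fdps at 268 CPM and Hmgcs1 at 129 CPM in that type. No cause of these values was tested.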

How the results depend on the processing

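Over 1736 fitted combinations of an enzyme, a comparison and an alternative, 1609 stayed on their side of the threshold, 97 kept the direction but lost the call, 30 kept the direction and gained it, and a change of sign with a call did not occur. Much of the loss came from asking for at least 2-fold in addition. With it the enzymes called fell to 2 in NF against NP neurons and to 1 in PEP against NP neurons, and over the 12 neuron types from 48 to 11. The genes called fell to 3906, 2861 and 2261 in NF against NP, NF against PEP and PEP against NP neurons, and to 25294 over the 12 types. Leaving out each library gave 7 to 8 enzymes called in glia against neurons, 6 to 6 in endothelial cells against neurons, 8 to 8 in glia against endothelial cells, 6 to 7 in NF against NP, 4 to 4 in NF against PEP and 5 to 5 in PEP against NP neurons, and 41 to 46 over the 12 types. The genes called moved with them, to 5827 to 6628 of a main 6785 in glia against neurons and to 46341 to 56974 of a main 58770 over the 12 types. With library totals or without the filter 6 of 8 were called in glia against neurons, and in DESeq2 7. With neuron types weighted equally or with the replicate block 8 were called. The genes called rose to 7062 with library totals, 8850 without the filter and 7386 in DESeq2, while the enzymes called fell. With neuron types weighted equally 7919 genes were called, and with the replicate block 6745. The replicate block moved the enzymes called from 3 to 5 in NP_Mrgpra3 and from 1 to 3 in Th, and no count of genes by over 1.5 times.

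With UMIs per cell in place of CPM the log2 ratio of glia to neurons turned to -0.60 for Hmgcs1, -0.11 for Idi1, -1.15 for Fdps, -1.65 for Fdft1, -0.87 for Sqle and -1.68 for Dhcr7, since neurons hold more UMIs per cell. Thinned to 10000 UMIs, the share of cells with a UMI was higher in glia by 11.1 percentage points for Hmgcs1, 5.65 for Fdft1, 15.9 for Sqle and 13.5 for Dhcr7, where the shares as deposited were lower in glia. Lss had 2 UMIs in all endothelial cells, which limits any value for it there.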

Other observations

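Genes that move, store or remove cholesterol were mostly higher in glia than in neurons. Over all 9484 genes tested 3095 were higher in glia and 2574 in endothelial cells than in neurons. Of 14 genes of transport, storage, efflux and turnover 12 passed the filter on low counts, 9 were higher in glia and 1 lower, with a median log2 fold change of 2.04. Apoe, the main apolipoprotein of glia, was higher by 9.23 ± 0.72, Mylip, which degrades the LDL receptor, by 4.19 ± 0.41 and Scarb1, the receptor for high-density lipoprotein, by 4.15 ± 0.17 (SE, edgeR). Apoe is also a satellite glia marker. In endothelial cells 7 of the 12 were higher than in neurons and 2 lower, with Mylip at 6.48 ± 0.45 and Scarb1 at 6.29 ± 0.19 (SE). Within neurons Scarb1 was higher in PEP than in NP types by 3.45 ± 0.27 and Abcg1, a sterol exporter, by 1.60 ± 0.13 (SE).

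Across the 249 glial cells, centred within libraries, the summed CPM of the 8 enzymes on a log2 scale had r = 0.79 with the summed satellite glia markers, -0.53 with the Schwann cell markers, -0.24 with the fibroblast markers, -0.25 with the dissociation and stress genes and -0.10 with the neuron markers. The sum of the satellite glia markers is mostly Apoe, at 78389 CPM over all glia, so that the first value is in large part one with Apoe, which also stands on the list of transport genes. The enzymes had r = -0.05 with the total UMIs of the cell. The summed CPM ran from 1227 at the 5th percentile of glial cells to 6481 at the 95th, with a median of 4139, against a median of 135 in endothelial cells and 1531 in neurons. These are descriptions over cells that share 5 animals, and shares of a total depend on each other.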
